A study of Saccharomyces cerevisiae with 4 samples.

Results

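The 10 genes described here make, import or control inositol and the phospholipids built with it in budding yeast (Saccharomyces cerevisiae). They are INO1, INO2, INO4, OPI1, OPI3, CHO1, CHO2, PIS1, ITR1 and ITR2. They were chosen by name and are 10 of the 5656 genes that the array reads with a probe set of their own, each member by 1 probe set (of 9335 in all). The H3 mutant strain carried glycine in place of 8 lysines of histone H3, at positions 4, 9, 14, 18, 23, 27, 36 and 79, and its reference was a wild-type strain whose arrays are also labelled as the wild type of another H3 mutant. For each strain 2 one-colour arrays were hybridised (n = 2) with RNA of cells harvested at an optical density of 0.5 to 0.7, in the mid-log phase of growth in YPD, a rich glucose medium. Mating type, ploidy, other alleles and the way the histone gene was replaced are not in the labels. Nor is it said whether replicates came from separate cultures, and p-values here reflect the spread of these 4 arrays alone.

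Yeast makes inositol from glucose phosphate through the enzyme encoded by INO1 and imports it through ITR1 and ITR2. Inositol and the activated lipid CDP-diacylglycerol are joined by the PIS1 product into phosphatidylinositol, while the products of CHO1, CHO2 and OPI3 lead from the same lipid to phosphatidylserine and, by decarboxylation and methylation, to phosphatidylcholine. Many of these genes share an upstream element bound by the paired activators Ino2 and Ino4 and are held down through the repressor Opi1 when inositol is at hand, as it is in rich medium. The INO1 promoter is a textbook case of a gene regulated through histone acetylation and nucleosome remodelling.

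Among these genes OPI3 was about 2-fold higher in the H3 mutant, INO1 was modestly higher from a dim signal, and no other member passed the test. Of the 8 members bright enough to test, 2 rose, 0 fell and 6 did not pass (limma, Benjamini-Hochberg adjusted p under 0.05 over 4476 tested genes). At an unadjusted p under 0.05 the counts were again 2 higher and 0 lower (42.6% of all tested genes passed that limit in either direction). Among all tested genes 14.3% were called higher and 15.5% lower, 29.8% in either direction, so a count of 2 in 8 is near that background. The median log2 fold change of the 8 tested members was 0.18, against -0.03 for all tested genes. INO2 and INO4 lay below the limit for testing, a mean signal of 25.1, and over all 10 members with no such limit the median was 0.12 (all genes -0.01). Fold changes throughout are on the scale of log2(signal + 16), mutant minus wild type, which understates the change of dim genes.

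The arrays as a whole bear on how these values can be read. Across tested genes, which are not independent replicates, r was 0.989 between the mutant arrays, 0.991 between the wild-type arrays and 0.942 to 0.949 between groups. The 6 a-specific mating genes, which mark cells of the a mating type, all fell, and their summed signal was 109 to 113 on the mutant arrays and 2272 to 2553 on the wild-type arrays, with none at 0. Their part in the results below was not tested, and a difference of cell type between the strains and the H3 change cannot be told apart. The deposited signals had been scaled so that each array had the same trimmed mean. The 9 probe sets for hybridization controls, which are added to each sample, were brighter in the mutant, with geometric means of 174 and 201 on the mutant arrays and 138 and 141 on the wild-type arrays. Scaling to them moved the median of all tested genes to -0.39, and 7.61% of the calls were then higher, against 48.0% as deposited. In that fit the intervals of the tested members were nearly equal in width. Its p-values thus rest on a spread pooled over genes more than on each gene's own. Whether either scaling follows the amount of RNA per cell was not tested.

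**Figure D1:**
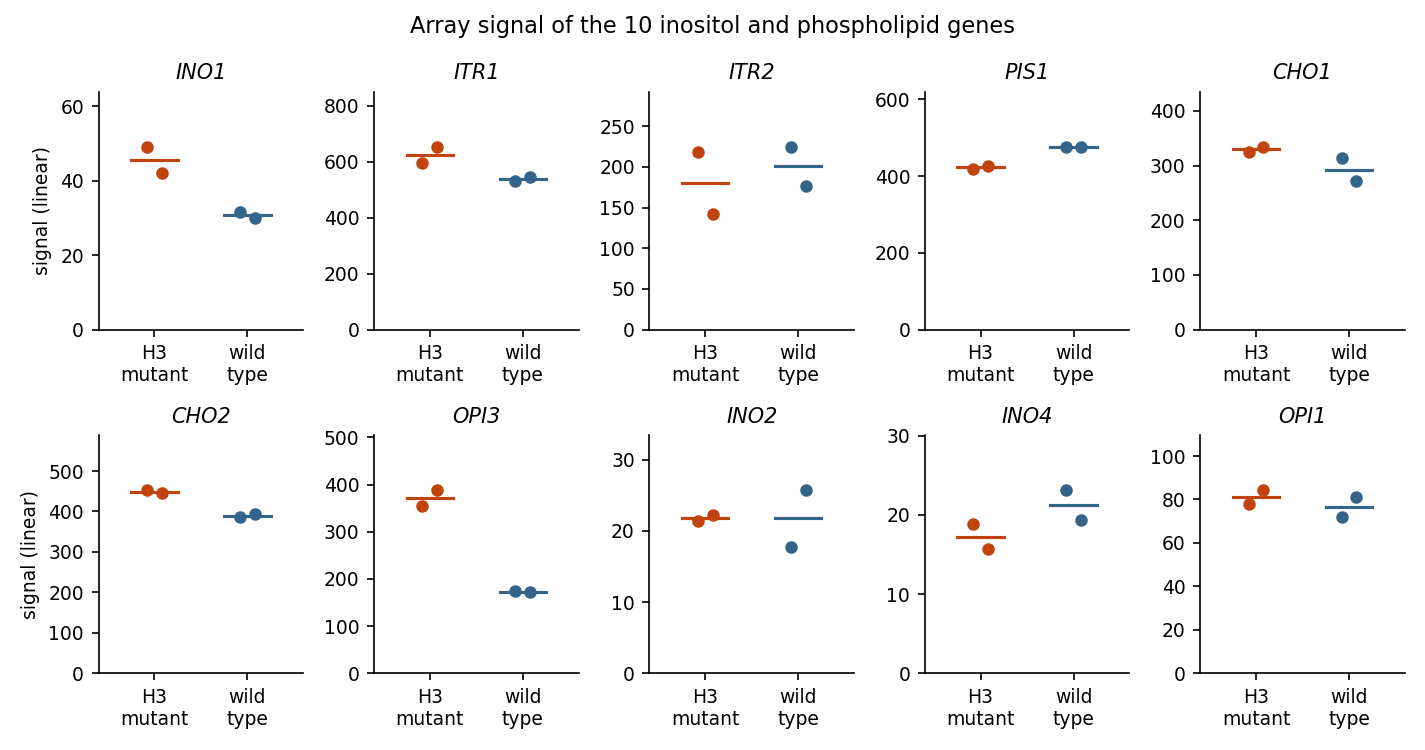
Signal of each of the 10 genes on each array, on a linear axis that starts at 0 and differs between panels, with the H3 mutant on the left and wild type on the right. Points are single arrays and lines the means of 2 arrays. OPI3 shows the widest separation, 355 and 387.7 in the mutant against 173.2 and 173 in wild type, and the groups overlap for INO2, OPI1 and ITR2.

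OPI3, which encodes the phospholipid methyltransferase of the last steps to phosphatidylcholine, had signals of 355 and 387.7 on the mutant arrays, against 173.2 and 173 on the wild-type arrays. Both mutant arrays lay far above both wild-type arrays, and the wild-type pair was nearly identical. The means were 371 ± 23.1 in the mutant and 173 ± 0.141 in wild type (SD, n = 2 each), a ratio of 2.15. The log2 fold change was 1.03 ± 0.0921 (SE) with an adjusted p of 8.13e-05, which is a 2.05-fold rise with a 95% interval of 1.77 to 2.36. It ranked 84 of 4476 tested genes from the largest rise. The call held whichever array was left out, with log2 values from 0.97 to 1.09 and adjusted p from 0.000169 to 0.00529. Under scaling to the hybridization controls it was 0.64 (adjusted p = 0.000190), which is 1.02 above the median of all tested genes on that scale, against 1.06 above it as deposited.

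CHO2 encodes the methyltransferase that takes the first step of the same methylation series. Its signals were 452.3 and 444.6 on the mutant arrays and 386 and 393.8 on the wild-type arrays. The groups did not overlap, but the difference was small, with a log2 fold change of 0.19 (95% interval -0.0034 to 0.39, adjusted p = 0.123). The interval of CHO2 lay wholly below that of OPI3, which ran from 0.82 to 1.24. The log2 change of OPI3 exceeded that of CHO2 by 0.84. For that difference the exact two-sided permutation test over arrays gave p = 0.333, the smallest that 2 arrays against 2 allow. This pair was chosen after the values had been seen.

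CHO1 encodes phosphatidylserine synthase, which stands at the head of this branch. It had signals of 325.6 and 334.4 in the mutant and 313.3 and 271.1 in wild type. Both mutant arrays were above both wild-type arrays, although mutant replicate 1 exceeded wild-type replicate 1 only narrowly. The log2 fold change was 0.17 (95% interval -0.05 to 0.39, adjusted p = 0.223), and it was 0.27 without wild-type replicate 1 and 0.07 without wild-type replicate 2.

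INO1, the inositol-3-phosphate synthase gene and the best known target of Ino2 and Ino4, had signals of 49.1 and 42.2 on the mutant arrays, against 31.7 and 30.0 on the wild-type arrays. The groups did not overlap, and all 4 values were in the lower range of tested signals. The means were 45.65 ± 4.88 in the mutant and 30.85 ± 1.20 in wild type (SD, n = 2 each), a ratio of 1.48. The log2 fold change was 0.39 ± 0.112 (SE) with a 95% interval of 0.14 to 0.65 and an adjusted p of 0.0278, rank 517 of 4476 from the largest rise. The call was lost without mutant replicate 1 (log2 fold change 0.31), wild-type replicate 1 (0.42) or wild-type replicate 2 (0.37). It held without mutant replicate 2 (0.47). Each of these fits leaves 1 array in a group, and each called fewer of all genes than the fit of 4 arrays. Under scaling to the hybridization controls INO1 was not called (0.10, adjusted p = 0.584). The rise of OPI3 exceeded that of INO1 by 0.64 on the log2 scale (exact two-sided permutation p = 0.333, again the smallest possible).

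**Figure D2:**
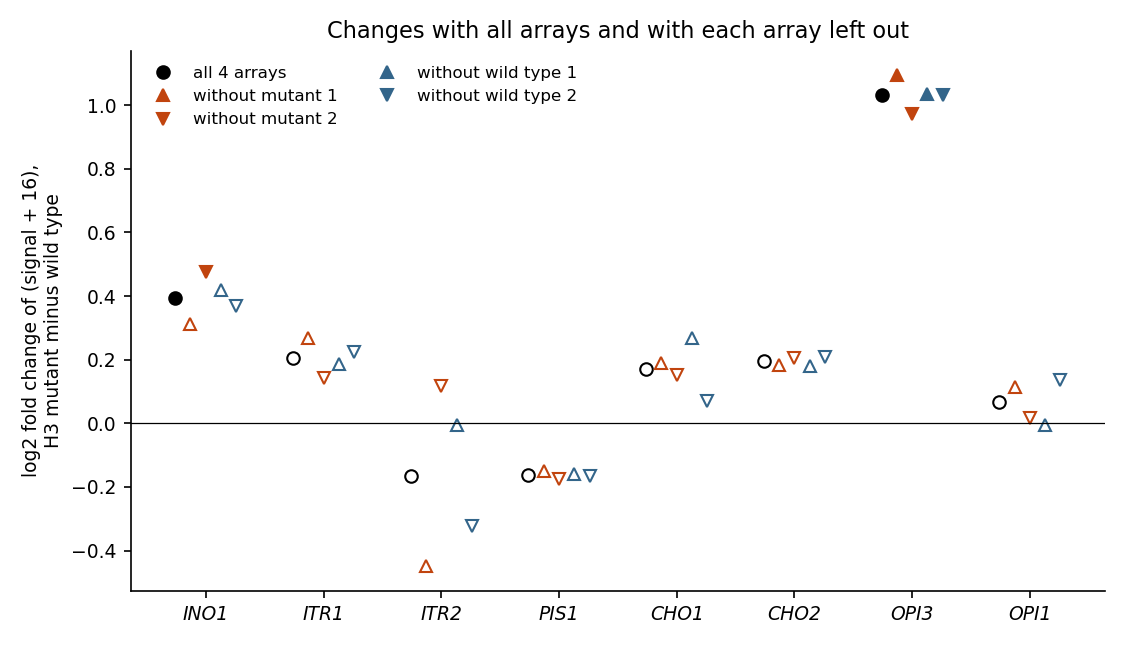
Log2 fold change of (signal + 16), mutant minus wild type, for the 8 tested genes, with all 4 arrays and with each array left out. Filled symbols passed an adjusted p of 0.05 and open ones did not. OPI3 stays between 0.97 and 1.09, INO1 is filled with all arrays and without mutant replicate 2, and ITR2 runs from -0.45 to 0.12.

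The inositol transporters gave no call. ITR1, the gene of the main inositol transporter, had signals of 597.2 and 653.5 in the mutant and 532.8 and 547.2 in wild type. The mutant arrays were both higher, by a log2 fold change of 0.20 that did not pass (95% interval -0.01 to 0.42, adjusted p = 0.129). ITR2 encodes a second, closely related transporter, and its signals were 217.9 and 141.8 in the mutant and 224.5 and 176.9 in wild type. The arrays of each group differed widely and the groups overlapped, with a log2 fold change of -0.16 (95% interval -0.57 to 0.24, adjusted p = 0.513). Its sign rested on 1 array, since without mutant replicate 2 the value was 0.12. Whether the probe sets of these related genes cross-hybridise was not tested. The changes of ITR1 and ITR2 differed by 0.37 on the log2 scale (exact two-sided permutation p = 0.667).

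PIS1, the phosphatidylinositol synthase gene, is known to respond to zinc and carbon source more than to inositol. Its signals were 418.9 and 427.0 on the mutant arrays and 475.9 and 474.6 on the wild-type arrays. It was the tested member whose mutant arrays both lay below both wild-type arrays, with a narrow spread in each group. The log2 fold change was -0.16 (95% interval -0.36 to 0.04, adjusted p = 0.190), and it was -0.57 under scaling to the hybridization controls (adjusted p = 0.000689), where the median of all tested genes was -0.39. ITR2 likewise passed under that scaling only, at -0.55 (adjusted p = 0.00155). Its interval there, -0.86 to -0.24, was about as wide as that of PIS1, -0.87 to -0.27. The ITR2 arrays of each group differed widely, which that pooled spread largely leaves out. Relative to the median of all tested genes PIS1 was at -0.13 as deposited and -0.18 under that scaling, and ITR2 was at -0.13 and -0.16.

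None of the 3 regulator genes among the 10, OPI1, INO2 and INO4, was called by limma. OPI1, the repressor gene, had signals of 77.7 and 84.2 in the mutant and 72.1 and 81.2 in wild type. The groups overlapped, and the log2 fold change was 0.07 (95% interval -0.18 to 0.31, adjusted p = 0.678), or -0.0045 without wild-type replicate 1. INO2, which encodes the activating subunit, had signals of 21.4 and 22.3 in the mutant, between the wild-type values of 17.8 and 25.7. INO4 encodes its DNA-binding partner, and its signals were 18.8 and 15.7 in the mutant and 23.1 and 19.3 in wild type. With no limit on signal, where 27.9% of all genes were called, neither gene passed. The log2 fold changes were 0.01 for INO2 (95% interval -0.26 to 0.29, adjusted p = 0.951) and -0.16 for INO4 (-0.40 to 0.08, adjusted p = 0.281). Both genes were dim in both strains, so these arrays limit only large changes of their transcripts.

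The arrays of both groups were fully separated for 6 of the 8 tested members, with the mutant higher for OPI3, INO1, CHO1, CHO2 and ITR1 and lower for PIS1. Such separation held for 67.4% of all tested genes, with the mutant higher for 31.1% and lower for 36.3%, so 6 of 8 is close to the background. Under scaling to the hybridization controls CHO1, CHO2, ITR1 and OPI1 gave -0.23, -0.21, -0.20 and -0.28, none of which passed (adjusted p from 0.121 to 0.228). Of the tested members, OPI3 and INO1 stayed above 0 under that scaling. Each of the others lay between -0.18 and 0.24 of the median of all tested genes on both scales.

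**Figure D3:**
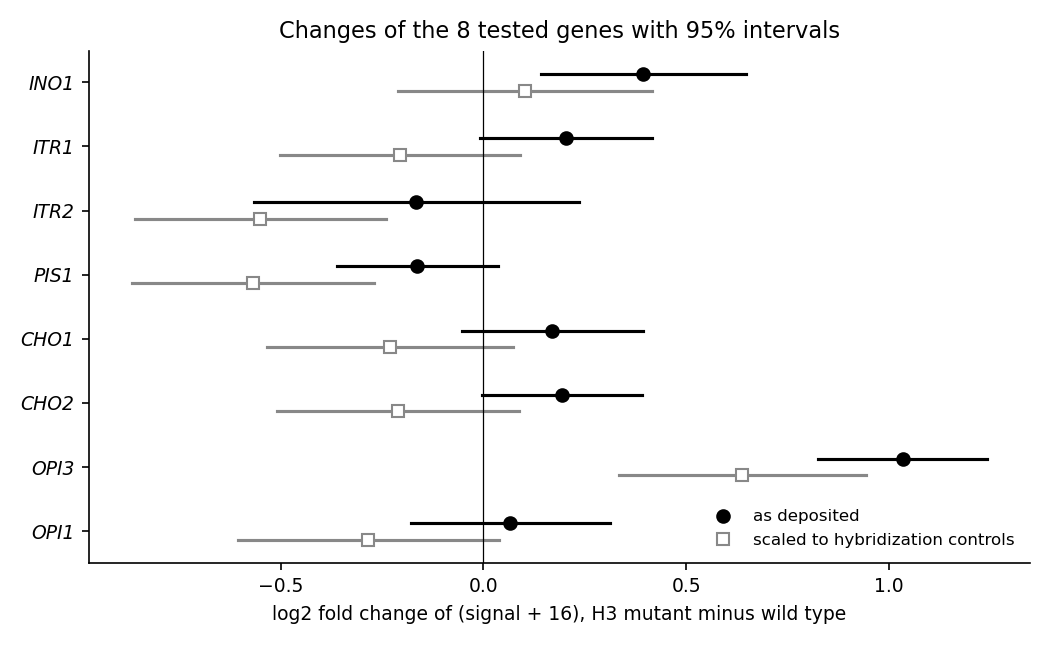
Log2 fold change of (signal + 16), mutant minus wild type, with 95% intervals from limma for the 8 tested genes. Filled circles use the deposited scaling and open squares the scaling to hybridization controls, where the intervals rest on a spread pooled over genes. The interval of OPI3 lies above 0 on both (0.82 to 1.24 and 0.33 to 0.94), while that of INO1 does so on the deposited scale alone.

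The genes next to each member on the chromosome were looked up by gene order in the reference table. Of 20 neighbours, 18 were tested, of which 2 rose, 1 fell and 15 did not pass. Among all tested genes 14.3% were called higher and 15.5% lower, so these counts are no larger than that background. MOG1, a nuclear transport gene beside OPI3, rose with signals of 91 and 87.1 in the mutant and 56.6 and 58.7 in wild type (log2 fold change 0.51, adjusted p = 0.00629). Its call held with any 1 array left out (adjusted p up to 0.0490) but not under scaling to the hybridization controls (0.17, adjusted p = 0.364). NPA3, on the other side of OPI3, gave 0.13 (adjusted p = 0.321). APM2, beside OPI1, rose by 0.50 and PUF6, beside ITR1, fell by 0.38 on the log2 scale (adjusted p = 0.00762 and 0.0333). APM2 lost its call without mutant replicate 2 (adjusted p = 0.0505) and under scaling to the hybridization controls (0.17, adjusted p = 0.361). PUF6 lost its call without mutant replicate 1 (0.142), mutant replicate 2 (0.112) or wild-type replicate 1 (0.139). The neighbours of INO1 did not pass, with 0.13 for SNA3 and -0.07 for VPS35 (adjusted p = 0.295 and 0.725), and VPS35 gave 0.12 without wild-type replicate 1.

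Other enzymes that make phospholipids mostly gave small differences. The background for each list below was 14.3% of all tested genes called higher and 15.5% lower. At an unadjusted p under 0.05 it was 42.6% in either direction. Of 10 tested genes that add or supply head groups, 0 rose, 1 fell and 9 did not pass, with a median of 0.08 (2 higher and 1 lower at an unadjusted p under 0.05). EPT1, which encodes the ethanolamine phosphotransferase of the salvage (Kennedy) route, fell to 54.6 and 51.8 in the mutant, against 89.6 and 91.5 in wild type. Its log2 fold change was -0.62 ± 0.103 (SE, adjusted p = 0.00241), and the call held in each fit without 1 array (adjusted p between 0.0121 and 0.0226). A dimmer EPT1 probe set gave -0.39 and did not pass in a fit over all probe sets (adjusted p = 0.0953). Of 13 tested genes for phosphatidic acid and diacylglycerol, 0 rose, 1 fell and 12 did not pass, with a median of -0.09 (1 higher and 3 lower unadjusted). DGK1, the diacylglycerol kinase gene, had 229 and 241.6 in the mutant and 297.1 and 318 in wild type. It fell by 0.36 on the log2 scale (adjusted p = 0.0178), a call lost without mutant replicate 1 (adjusted p = 0.0999) and without wild-type replicate 2 (0.0712).

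Of 6 cardiolipin genes on the array 3 were tested, of which 0 rose and 1 fell, with a median of -0.28 (0 higher and 2 lower unadjusted). Among all tested genes 15.5% were called lower. With no limit on signal 1 of the 6 was called higher and 1 lower, and the median was -0.07. The higher one was the cardiolipin deacylase gene CLD1, named after its values were seen, which was dim at 25.4 and 21.2 in the mutant and 7.6 and 10.3 in wild type (log2 fold change 0.66, adjusted p = 0.00276). TAZ1, the tafazzin gene that remodels cardiolipin, had 26.3 and 24.0 in the mutant and 55.2 and 35.4 in wild type. Its log2 fold change of -0.56 (adjusted p = 0.0249) was not called without mutant replicate 1 (adjusted p = 0.0547), mutant replicate 2 (0.0862) or wild-type replicate 1 (0.122, with a value of -0.32). None of 8 tested genes of phospholipid turnover was called by limma, with a median of -0.01 (0 higher and 1 lower unadjusted). With no limit on signal, 1 of 9 was called higher, GIT1, the permease gene for glycerophosphoinositol, and the median was 0.04. Among the 8 tested, the leading genes by statistic were the phospholipase B gene PLB3, with a log2 fold change of -0.36 (adjusted p = 0.0848), and the sphingolipid phospholipase gene ISC1, with -0.20 (adjusted p = 0.205). ISC1 gave -0.32 without wild-type replicate 1, -0.08 without wild-type replicate 2 and a called -0.57 under scaling to the hybridization controls (adjusted p = 0.00129). PLB3 was called under median centring (adjusted p = 0.0410). Fits that pool the spread over genes called PLB3 too, with the replicate block (0.00958) and under scaling to the hybridization controls (-0.72, adjusted p = 6.19e-05). It was also called without wild-type replicate 2 (-0.58, adjusted p = 0.0215) and gave -0.14 without wild-type replicate 1 (adjusted p = 0.386).

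Genes of inositol-containing sphingolipids, which are built on ceramide with phosphatidylinositol as the donor of the head group, held the largest fall among the related lipid lists. Among 12 tested, 0 rose, 5 fell and 7 did not pass, with a median of -0.24 (2 higher and 6 lower unadjusted), against 15.5% of all tested genes called lower. IPT1, the transferase gene for the most complex of these lipids, had signals of 39.8 and 27.7 in the mutant, against 100.6 and 92.7 in wild type. Its log2 fold change was -1.19 ± 0.135 (SE, adjusted p = 0.000337), and it stayed called in each fit without 1 array (adjusted p between 0.000150 and 0.0147). LAG1, a ceramide synthase gene, fell by 0.60, TSC10, a reductase of long-chain base synthesis, by 0.39, and LCB2, a serine palmitoyltransferase subunit gene, by 0.34 on the log2 scale (adjusted p = 0.0262, 0.0167 and 0.0280). SUR1, a gene for mannosylation of these lipids, fell by 0.39 as well (adjusted p = 0.0368), a call that no fit without 1 array kept (adjusted p between 0.0514 and 0.226). The count of falls was smaller in each fit without 1 array, which leaves 1 array in a group. The list's median in those fits ran from -0.19 (without wild-type replicate 2) to -0.32 (without wild-type replicate 1). Under scaling to the hybridization controls the count of falls was 9. Centring in blocks of 300 probe set numbers, chosen after seeing the data, gave 1 rise and 3 falls with a median of -0.21, and LCB2 at -0.14 (adjusted p = 0.376). The LAG1 call was lost without mutant replicate 1 (adjusted p = 0.0759) or 2 (0.0615). LAG1 gave -0.88 without wild-type replicate 2 (adjusted p = 0.0104) and fell below the limit on signal, untested, without wild-type replicate 1. TSC10 lost its call without mutant replicate 1 (0.0930) or wild-type replicate 2 (0.0705), and LCB2 without mutant replicate 1 (0.109), mutant replicate 2 (0.121) or wild-type replicate 2 (0.0999).

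**Figure D4:**
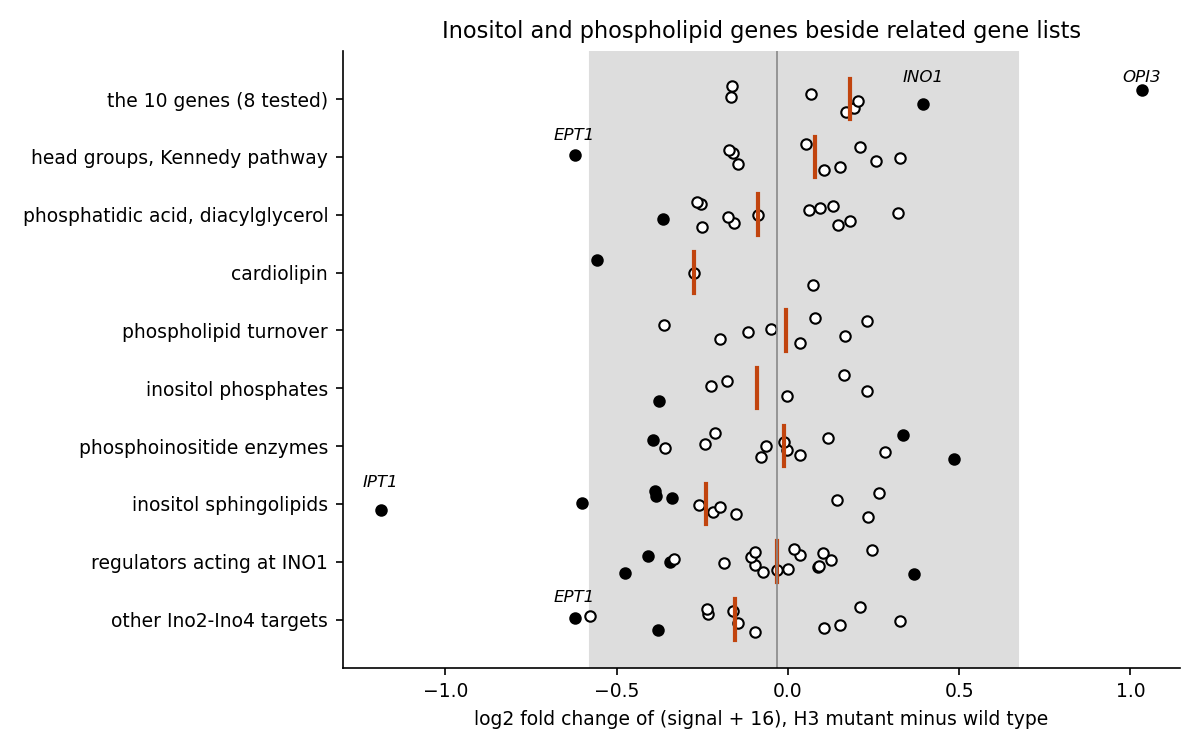
Log2 fold change of (signal + 16), mutant minus wild type, for the tested genes of each list, 1 point per gene (filled where called, open where not) with the list's median as a red bar. The grey band spans the 5th to 95th percentile of all tested genes (-0.58 to 0.67) and the grey line their median. OPI3 at 1.03 and IPT1 at -1.19 lie outside the band on opposite sides, and most other points lie within it.

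Of 6 tested inositol phosphate genes 0 rose and 1 fell, with a median of -0.09 (0 higher and 1 lower unadjusted). DDP1, a phosphatase gene acting on inositol pyrophosphates, had 36.3 and 33.7 in the mutant and 53.2 and 47.4 in wild type (log2 fold change -0.38, adjusted p = 0.0306), a call that no fit without 1 array kept (adjusted p between 0.0529 and 0.150). Among the phosphoinositide kinase and phosphatase genes, 13 were tested, of which 2 were called higher and 1 lower, with a median of -0.01. Over all tested genes 14.3% were called higher and 15.5% lower, so the counts of both lists are near that background. The phosphatase gene SAC1 had 335.3 and 317.3 in the mutant and 455.4 and 412.2 in wild type, a fall by 0.39 on the log2 scale (adjusted p = 0.0147). That call was lost without mutant replicate 2 (adjusted p = 0.0813) or wild-type replicate 1 (0.0751).

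FAB1, a kinase gene for the phosphoinositide of the vacuole, rose by 0.49 (adjusted p = 0.00942). A second probe set of similar brightness gave 0.57 in a fit over all probe sets (adjusted p = 0.0385), while the 6 dimmer ones gave -0.09 to 0.25 and did not pass. Without mutant replicate 1 the FAB1 call was lost (log2 fold change 0.43). Without wild-type replicate 2 the second probe set was the brighter and stood for the gene, at 0.50, and it did not pass. Under scaling to the hybridization controls the FAB1 call was lost as well (log2 fold change 0.15, adjusted p = 0.438). VPS15, the partner of the Vps34 lipid kinase, rose by 0.34 (adjusted p = 0.0442). Its value was -0.02 under that scaling, and the call was lost without mutant replicate 1 (adjusted p = 0.162), mutant replicate 2 (0.159) or wild-type replicate 1 (0.158).

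Genes whose products are reported to regulate INO1 were measured as well. Of 19 tested, 1 rose, 3 fell and 15 did not pass, and the median of -0.03 was that of all tested genes. Over all tested genes 14.3% were called higher and 15.5% lower, so the count of 3 in 19 is near that background. SCS2, which encodes the membrane protein that holds Opi1 at the endoplasmic reticulum, had 663.5 and 555.5 in the mutant and 799 and 824.9 in wild type. Its log2 fold change was -0.41 (adjusted p = 0.0208), and the call was lost without mutant replicate 2 (-0.28, adjusted p = 0.166), wild-type replicate 1 (0.0803) or wild-type replicate 2 (0.0904). The DNA-binding factor gene CBF1 fell by 0.48 and the nuclear pore gene NUP2 by 0.35 on the log2 scale, while ARP8, a subunit gene of the Ino80 remodeller, rose by 0.37 (adjusted p = 0.0211, 0.0343 and 0.0326). NUP2 lost its call in each fit without 1 array (adjusted p between 0.0516 and 0.140). CBF1 was not called without mutant replicate 2 (0.147), wild-type replicate 1 (0.122) or wild-type replicate 2 (0.0505), and ARP8 not without mutant replicate 1 (0.150), mutant replicate 2 (0.110) or wild-type replicate 1 (0.124). ARP8 was at 0.03 under scaling to the hybridization controls. RPD3 and SIN3, genes of a deacetylase complex, and the acetyltransferase gene GCN5 gave -0.11, 0.10 and -0.07 and did not pass (adjusted p from 0.514 to 0.675). GCN5 gave 0.046 without mutant replicate 2 and SIN3 gave -0.0059 without mutant replicate 1. Under scaling to the hybridization controls RPD3 and GCN5 were called lower (-0.46 and -0.35, adjusted p = 0.0102 and 0.0436). The median of all tested genes was -0.39 on that scale, and SIN3 was not called there.

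Of 13 other genes on the array that are reported to carry sites for Ino2 and Ino4, 12 were tested. Among these 0 rose, 2 fell and 10 did not pass, with a median of -0.15 (1 higher and 5 lower unadjusted). Over all tested genes 15.5% were called lower, so a count of 2 in 12 is near that background. The limma fit called 1 higher with the replicate block or with block centring. It called 1 lower at a threshold of 0.01 and 0 at 2-fold, 4 with the mean of probe sets and 8 under scaling to the hybridization controls. With 1 array left out the count of falls was 1 to 3, at 1 without mutant replicate 1, mutant replicate 2 or wild-type replicate 1. The untested gene was GIT1, named after its values were seen, at 21.9 and 19.7 in the mutant and 14.7 and 12 in wild type, which was called higher with no limit on signal (log2 fold change 0.33, adjusted p = 0.0381). The genes that fell were EPT1, described above, and ACS2, an acetyl-CoA synthetase gene. ACS2 had 518 and 511.5 in the mutant and 688.7 and 661.1 in wild type (log2 fold change -0.38, adjusted p = 0.0134), a call lost without mutant replicate 1 (adjusted p = 0.0626), mutant replicate 2 (0.0715) or wild-type replicate 1 (0.0575). The choline transporter gene HNM1 and the phosphatidylserine decarboxylase gene PSD1, whose enzyme links the steps of CHO1 and CHO2, gave -0.16 and 0.21 and did not pass (adjusted p = 0.282 and 0.267). Without wild-type replicate 1 they gave -0.05 and 0.01, and without wild-type replicate 2 -0.27 and 0.40. Under scaling to the hybridization controls HNM1 was called lower (-0.54, adjusted p = 0.00226) and PSD1 gave -0.19.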

How the data were processed

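RNA of 2 H3 mutant and 2 wild-type samples was read on one-colour oligonucleotide arrays. The authors deposited MAS5 signals, an intensity per probe set on a linear scale, per the submitters' processing notes. Version and scaling target of MAS5, and the genome build, are not given in the sources, so no coordinates are printed. Trimmed means were equal (125.1 on each array), and no further scaling was applied. Symbols came from the platform's table, updated through gene identifiers. The test, mutant minus wild type, was limma 3.58.1 (R 4.3.3, lmFit and trended eBayes) on log2(signal + 16), with a Benjamini-Hochberg threshold of 0.05. Probe sets of a single gene entered it unless their mean log2 signal was under the 25th percentile. The brightest per gene was kept, which left 4476 genes. The number of arrays limits the precision. The script was tested on simulated data.

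The members, lists and tests were chosen with earlier results of these data known. Named genes were the 10 members and, from each list, up to 4 called genes by moderated statistic (2 uncalled where none was called). Neighbours, RPD3, SIN3, GCN5, HNM1, PSD1, SUR1 and the pairs of members were chosen after values were seen. A planned count of promoter motifs was not run, as no sequence was used here. Alternatives changed the offset, scaling, filter, prior, replicate block, probe-set handling, threshold and arrays. Same-numbered arrays deviated together only weakly (r = 0.130 across genes), and nothing in the labels pairs them. Figures used matplotlib 3.10.9 in Python 3.11.15.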

Additional observations from a re-analysis of the deposited data

How the results depend on the processing

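The OPI3 rise kept its direction and call under all 20 alternatives, from 0.64 to 1.10 on the log2 scale. INO1 stayed above 0 in the 19 that tested it (0.10 to 0.55), and its call was lost in 7. The count of 2 members called higher became 1 under scaling to the hybridization controls, with a filter at the median (which leaves INO1 untested), over all probe sets, at a threshold of 0.01 and at 2-fold, and was 1 to 2 with 1 array left out. The count of 0 called lower became 2 under the control scaling. There the members' median was -0.22, against 0.18, and CHO1, CHO2, ITR1, OPI1 and VPS15 turned to -0.23, -0.21, -0.20, -0.28 and -0.016, as NPA3, PSD1, SIN3 and SNA3 did to -0.26, -0.19, -0.24 and -0.27. With 1 array left out, signs turned for ITR2 (-0.45 to 0.12), OPI1 (-0.0045 to 0.14), GCN5 (-0.19 to 0.046), SIN3 (-0.0059 to 0.21) and VPS35 (-0.26 to 0.12). The cause of these turns was not tested.

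Over all genes 641 rose and 694 fell. These counts were 205 and 2490 under the control scaling, 367 and 273 at a threshold of 0.01, 93 and 41 at 2-fold, and 390 to 481 and 314 to 458 with 1 array left out, lowest without mutant replicate 1 and wild-type replicate 1. A filter at the median gave 425 higher. With the replicate number as a block 800 rose and 966 fell, INO1 (adjusted p = 0.00428) and OPI3 stayed called, and no member's call changed. The limma fit with that block gave the a-specific gene MFA2 an adjusted p of 3.88e-285, against 2.93e-08 in the main fit. The p-values of the block fit thus rest on a spread pooled over genes. Its larger counts do not show closer agreement of the arrays. On 650 tested probe sets numbered from 5600 to 6700 the mutant arrays differed more (SD 0.351 of the log2 difference, against 0.164 elsewhere). CHO1, ITR1 and INO2 lie there, as do IPT1, ISC1, LCB2, PUF6 and SCS2. A fit without these and one centred in blocks of 300 probe set numbers, both chosen after seeing the data, called the same members, INO1 and OPI3, and LCB2 gave -0.14 (adjusted p = 0.376) with that centring. The dim signals of INO1, INO2 and INO4 limit what the arrays can show.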
